A study of Homo sapiens with 6 samples.

Results

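Genes of sterol and fatty acid synthesis were examined in MDA-MB-231 cells, a human triple-negative breast cancer line, in which HMGA2 had been knocked down. They were chosen by name as enzymes and regulators of the 2 pathways, and 33 of the 61806 genes in the deposited table are members: 7 enzymes of the mevalonate and isoprenoid steps, 11 of squalene and the later sterol steps, 6 genes of sterol sensing and SREBP control, and 9 of fatty acid synthesis and use. All 33 were among the 16110 genes that passed the filter on low counts. Bulk RNA sequencing was done on 3 groups of 2 libraries each: shNC, the shRNA control, and shHMGA2-1 and shHMGA2-2, lines infected with lentivirus carrying either of 2 shRNAs against HMGA2. The cells carry no other labelled allele or agent, and the knockdown lines were grown from single clones after puromycin selection, a step that is not described separately for shNC. Each group is therefore 1 line, and an effect of the shRNA and a difference between lines cannot be told apart. The submitters' library names call the controls WT where the titles say shNC, and those of shHMGA2-1 carry the code SH2, so that which of the 2 shRNAs that line holds is not certain. The names of the shHMGA2-2 libraries follow a different pattern from those of the other groups, which the sources used here do not explain. Groups are named here by the titles. No source says whether the 2 samples of a group were separate cultures, so p-values measure only the spread between these samples, which may be technical.

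Cells make cholesterol from acetyl-CoA through mevalonate, isoprenoids, squalene and lanosterol, and make fatty acids from the same acetyl-CoA through malonyl-CoA. The transcription factors SREBP-1 and SREBP-2, encoded by SREBF1 and SREBF2, switch on both gene sets. When membrane sterol is low, SCAP carries the SREBP precursors to the Golgi for cleavage, and when sterol is plentiful INSIG proteins hold SCAP and its cargo in the endoplasmic reticulum. SREBP-2 acts mainly on sterol genes and SREBP-1 mainly on fatty acid genes, and both bind promoters beside NF-Y and Sp1.

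Promoter sequences of 6 members are shown because these genes mark the ends of the range described here: MSMO1, SCD and INSIG1 had the 3 lowest levels relative to shNC in shHMGA2-2, SREBF2 and SREBF1 moved in opposite directions, and EBP was the sterol enzyme that rose. Each is 300 bases of the RefSeq promoter table (GRCh38.p14), from 250 bases before to 50 after the annotated start, 5′ to 3′ on the gene's strand. Capitals mark, on either strand, the inner letters of the sterol regulatory element (CACNCCA), the NF-Y box (CCAAT) and the GC box bound by Sp1 (GGGCGG).
MSMO1, chr4:165327419-165327718, plus strand: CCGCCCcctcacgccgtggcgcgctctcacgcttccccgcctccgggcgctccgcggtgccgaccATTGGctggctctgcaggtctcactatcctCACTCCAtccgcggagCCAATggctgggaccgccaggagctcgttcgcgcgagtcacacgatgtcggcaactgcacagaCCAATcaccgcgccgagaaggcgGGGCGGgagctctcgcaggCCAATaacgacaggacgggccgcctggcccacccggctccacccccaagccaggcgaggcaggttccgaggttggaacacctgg
SCD, chr10:100346983-100347282, plus strand: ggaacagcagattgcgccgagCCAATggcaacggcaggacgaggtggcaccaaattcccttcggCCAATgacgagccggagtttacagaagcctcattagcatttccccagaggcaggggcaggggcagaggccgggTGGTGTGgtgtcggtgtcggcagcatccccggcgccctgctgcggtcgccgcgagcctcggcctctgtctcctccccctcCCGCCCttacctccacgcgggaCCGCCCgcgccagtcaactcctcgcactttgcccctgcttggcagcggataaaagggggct
INSIG1, chr7:155297628-155297927, plus strand: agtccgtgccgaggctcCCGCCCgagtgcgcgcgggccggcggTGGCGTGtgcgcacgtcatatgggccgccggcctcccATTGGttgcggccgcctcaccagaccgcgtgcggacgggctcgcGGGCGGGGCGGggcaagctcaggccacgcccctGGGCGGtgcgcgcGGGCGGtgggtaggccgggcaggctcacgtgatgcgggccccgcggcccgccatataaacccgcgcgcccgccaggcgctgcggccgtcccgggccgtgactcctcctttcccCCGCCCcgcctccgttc
SREBF2, chr22:41832855-41833154, plus strand: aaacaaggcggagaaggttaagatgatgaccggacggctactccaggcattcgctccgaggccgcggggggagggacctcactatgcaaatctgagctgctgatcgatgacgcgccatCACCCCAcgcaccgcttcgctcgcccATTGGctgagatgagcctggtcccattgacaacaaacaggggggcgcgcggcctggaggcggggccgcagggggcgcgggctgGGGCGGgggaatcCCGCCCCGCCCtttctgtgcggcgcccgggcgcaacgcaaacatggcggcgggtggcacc
SREBF1, chr17:17836937-17837236, minus strand: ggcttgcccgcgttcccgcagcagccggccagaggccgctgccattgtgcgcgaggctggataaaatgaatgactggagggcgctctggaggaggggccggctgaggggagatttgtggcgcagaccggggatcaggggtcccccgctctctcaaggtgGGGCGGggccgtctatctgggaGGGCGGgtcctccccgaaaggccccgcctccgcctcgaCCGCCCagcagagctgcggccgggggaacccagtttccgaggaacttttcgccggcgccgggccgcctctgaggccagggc
EBP, chrX:48521558-48521857, plus strand: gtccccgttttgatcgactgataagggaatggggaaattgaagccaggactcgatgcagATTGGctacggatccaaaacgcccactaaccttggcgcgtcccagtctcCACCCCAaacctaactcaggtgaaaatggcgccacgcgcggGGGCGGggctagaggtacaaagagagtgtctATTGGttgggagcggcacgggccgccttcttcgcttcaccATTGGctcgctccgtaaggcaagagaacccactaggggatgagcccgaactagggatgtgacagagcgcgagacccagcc

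The libraries held 16461178 to 17167293 counts, and mitochondrial genes took 6.74% to 7.86% of them. HMGA2, the targeted chromatin protein, was counted 2126 and 2161 times in shNC, 858 and 989 in those of shHMGA2-1 and 435 and 482 in those of shHMGA2-2, so that it was lower in both lines as labelled (log2 fold change -1.29 ± 0.09 (SE) and -2.31 ± 0.09) and lower in shHMGA2-2 than in shHMGA2-1 (-1.01 ± 0.10). Of 5 mesenchymal and basal markers listed for this line, vimentin stood at 411 to 432 FPKM in all 6 libraries. It was slightly lower in shHMGA2-2 by the test (log2 fold change -0.17). CD44 was higher in both lines (0.25 in shHMGA2-1 and 0.41 in shHMGA2-2) and AXL lower in both (-0.42 and -0.94). CAV1 was lower in shHMGA2-1 (-0.63), and S100A4 was lower in shHMGA2-1 (-2.59) but higher in shHMGA2-2 (1.15). Of the receptor genes, ESR1 and PGR reached at most 0.05 and 0.01 FPKM, and ERBB2 stood at 6.43 to 10.8 and was higher in both lines (0.46 ± 0.10 and 0.45 ± 0.10). Adipocyte markers summed to 0.05 to 0.22 FPKM per library, hepatocyte markers to 0.00 to 0.40, leukocyte markers to 0.01 to 0.47 and fibroblast markers to 0.52 to 1.61, with ADIPOQ, CD3E, DCN, LUM and PDGFRA at 0 in every library. In bulk RNA, fewer cells with a transcript and less of it per cell cannot be told apart.

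Most members were lower in the knockdown lines than in the shNC libraries, moderately in those of shHMGA2-1 and strongly in those of shHMGA2-2. In shHMGA2-1, 23 of 33 were lower and 1 was higher at an adjusted p under 0.05 (edgeR), where 17.6% of all tested genes were lower and 15.8% higher. Without shNC replicate 1 the count lower was 15 (HMGCS1, MVD, FDFT1, CYP51A1, DHCR7, SREBF2, STARD4 and FADS2 lost their calls), and without shNC replicate 2 it was 13, with NSDHL, HSD17B7 and ACLY lost in place of MVD. In shHMGA2-2, 28 were lower and 3 higher, where 29.2% of tested genes were lower and 29.5% higher. Of these, 21 were lower by at least 2-fold, against 9.65% of tested genes. The median log2 fold change over the members was -0.30 in shHMGA2-1 and -1.32 in shHMGA2-2, beside 0.01 and 0.03 over all tested genes. Both comparisons use the same shNC libraries. Between the 2 libraries of a group, the members differed by a median of 0.05 log2 units in shNC, 0.15 in shHMGA2-1 and 0.07 in shHMGA2-2. The 3-group model estimates the spread of each gene over all groups together. With a 2-fold change required as well, edgeR called 0 members lower in shHMGA2-1 (all genes, 3.59%), and 0 higher in shHMGA2-1 (4.89%) or shHMGA2-2 (11.7%). Each of these 3 counts was also 0 at an unadjusted p under 0.05, by DESeq2 and by limma.

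**Figure D1:**
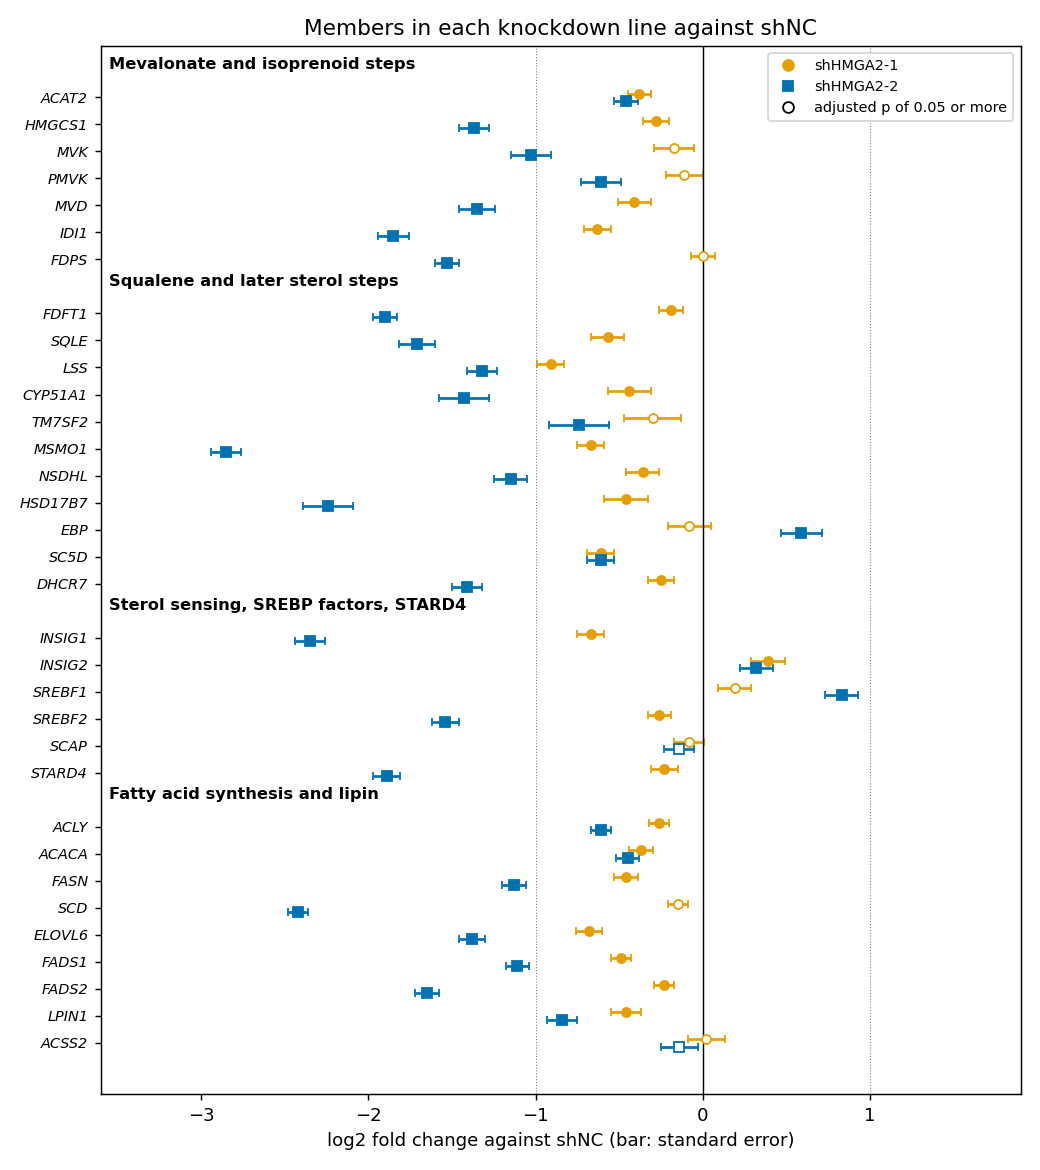
Log2 fold change of each of the 33 members against shNC (x axis; bars are standard errors), grouped by role, for shHMGA2-1 (circles) and shHMGA2-2 (squares), with open symbols where the adjusted p was 0.05 or more. In shHMGA2-2 the values run from -2.85 for MSMO1 to 0.83 for SREBF1, and in shHMGA2-1 from -0.91 for LSS to 0.39 for INSIG2.

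**Figure D2:**
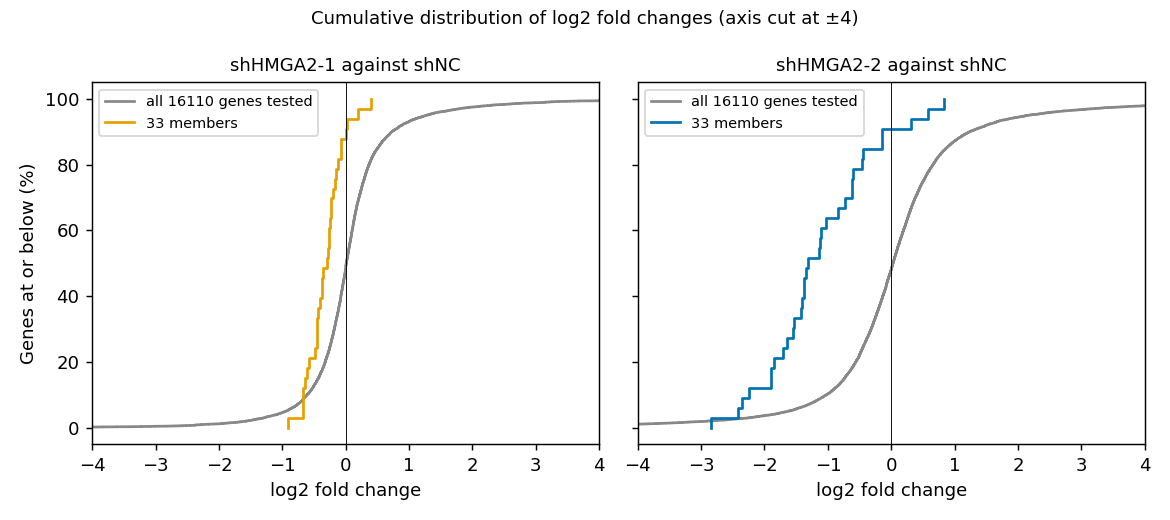
Percentage of genes at or below each log2 fold change, for the members and for all 16110 genes tested, in either knockdown line (axis from -4 to 4). The median lies at -0.30 for the members and 0.01 for all genes in shHMGA2-1, and at -1.32 and 0.03 in shHMGA2-2.

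In levels per transcript length the 33 members summed to 895 and 895 FPKM in the shNC libraries, 764 and 748 in those of shHMGA2-1 and 401 and 412 in those of shHMGA2-2. The sum was 84.5% of shNC in shHMGA2-1 and 45.4% in shHMGA2-2, and the libraries of the 3 groups did not overlap. Among the roles, the squalene and later sterol steps stood lowest in shHMGA2-2, at 37.5% of shNC. Fatty acid genes stood at 45.6%, the regulators at 48.8% and the mevalonate steps at 51.1%. Sums are weighted to abundant genes: ACAT2 alone gave 41.0 of the mean 105.6 FPKM of the mevalonate steps in shHMGA2-2. By the median member the order differed. The later sterol steps stood at 37.7% of shNC, the mevalonate steps at 39.3%, fatty acid genes at 46.2% and the regulators at 55.8%.

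**Figure D3:**
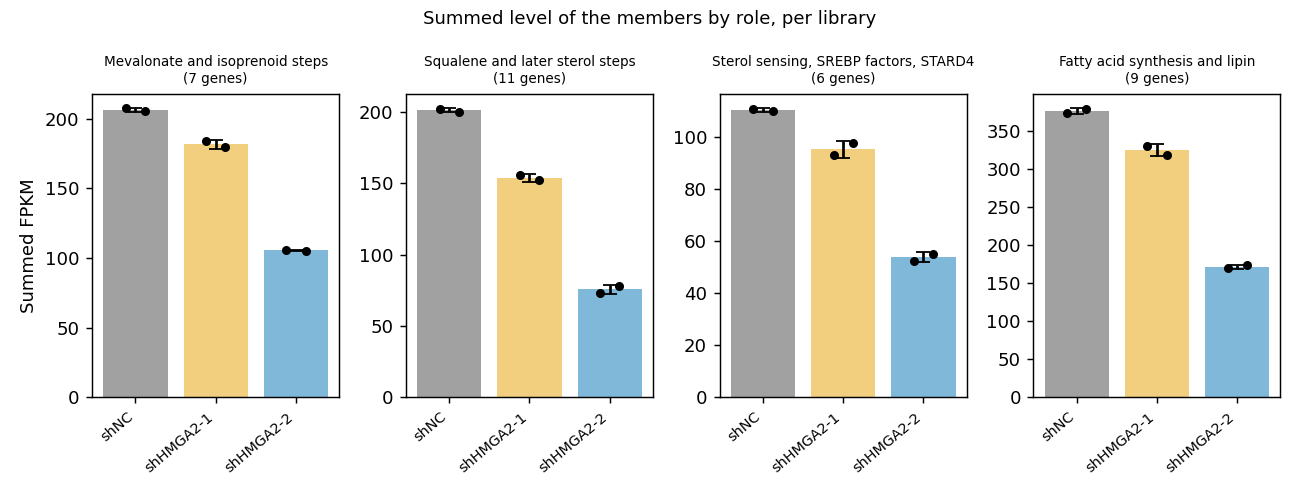
Summed FPKM of the members of each role (y axis, from 0) in shNC, shHMGA2-1 and shHMGA2-2; bars are means of 2 libraries, points the libraries, error bars the SD. Later sterol steps fell from 201.4 in shNC to 154.0 and 75.6, and fatty acid genes from 376.8 to 324.9 and 171.7.

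The 7 member enzymes of the mevalonate and isoprenoid steps were all lower in shHMGA2-2, 5 by at least 2-fold (median log2 fold change -1.35). Among all tested genes 29.2% were lower there, and 9.65% by at least 2-fold. In shHMGA2-1, 4 of the 7 were lower (median -0.28), beside 17.6% of all tested genes. IDI1, the isopentenyl diphosphate isomerase (chr10:1039152-1049119), had the largest decrease of the group. Its level, in CPM (counts relative to library size after TMM scaling), was 175 and 165 in the shNC libraries, 101 and 118 in those of shHMGA2-1 and 50.9 and 43.9 in those of shHMGA2-2. The 3 groups did not overlap, and the log2 fold change was -0.63 ± 0.08 in shHMGA2-1 (edgeR, adjusted p = 1.81e-06) and -1.85 ± 0.09 in shHMGA2-2 (7.01e-15). With 2 libraries a group, such separation was common. Of all tested genes, 31.8% lay wholly below shNC in shHMGA2-1 and 38.7% in shHMGA2-2. Between the lines, 36.5% lay wholly lower in shHMGA2-2. HMGCS1, the HMG-CoA synthase that feeds the pathway (chr5:43287470-43313512), stood at 122 and 129 CPM in the shNC libraries, 96.5 and 110.1 in those of shHMGA2-1 and 51.5 and 45.5 in those of shHMGA2-2. The log2 fold change was -0.28 ± 0.08 in shHMGA2-1 and -1.37 ± 0.09 in shHMGA2-2. The decarboxylase gene MVD, which makes isopentenyl diphosphate, had 43.1 and 39.4 CPM in shNC, 33.4 and 28.8 in shHMGA2-1 and 16.2 in both libraries of shHMGA2-2. The 3 groups did not overlap, and the log2 fold changes were -0.41 ± 0.10 and -1.35 ± 0.11.

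FDPS, MVK and PMVK passed the test against shNC in shHMGA2-2 and not in shHMGA2-1. FDPS, the farnesyl pyrophosphate synthase (chr1:155308748-155320666), had 255 and 244 CPM in the shNC libraries, 254 and 246 in those of shHMGA2-1 and 85.3 and 86.9 in those of shHMGA2-2. The control and shHMGA2-1 libraries overlapped, at a log2 fold change of 0.00 ± 0.07 (adjusted p = 0.977), whereas shHMGA2-2 stood at -1.53 ± 0.07 against shNC (1.55e-15) and at -1.54 ± 0.07 against shHMGA2-1 (2.43e-15). Mevalonate kinase, MVK, had 25.1 and 25.5 CPM in the shNC libraries, 24.0 and 21.0 in those of shHMGA2-1 and 11.3 and 13.5 in those of shHMGA2-2. Its change was -0.17 ± 0.12 in shHMGA2-1 (adjusted p = 0.289) and -1.03 ± 0.12 in shHMGA2-2 (1.42e-07). PMVK, the next kinase, was lower in shHMGA2-2 (log2 fold change -0.61 ± 0.12) and stood at -0.11 ± 0.11 in shHMGA2-1 (edgeR, adjusted p = 0.473). ACAT2, the cytosolic thiolase of the first step, stood at -0.38 ± 0.07 in shHMGA2-1 and -0.46 ± 0.07 in shHMGA2-2, a difference of -0.08 ± 0.07 (adjusted p = 0.383).

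Among the squalene and later sterol enzymes 10 of 11 were lower in shHMGA2-2, 8 of them by at least 2-fold, and 1 was higher (median log2 fold change -1.41). Of all tested genes, 29.2% were lower there, 9.65% by at least 2-fold, and 29.5% higher. In shHMGA2-1, 9 of 11 were lower (median -0.44), beside 17.6% of all tested genes. MSMO1, the methylsterol monooxygenase that removes methyl groups from lanosterol-derived sterols (chr4:165327667-165343164), was the member with the lowest level relative to shNC. It had 199.8 and 184.5 CPM in the shNC libraries, 113 and 128 in those of shHMGA2-1 and 26.2 and 27.1 in those of shHMGA2-2. The groups did not overlap, and shHMGA2-2 retained 13.9% of the shNC level (log2 fold change -2.85 ± 0.09, adjusted p = 1.48e-18), against 62.6% in shHMGA2-1 (-0.67 ± 0.08, 1.89e-07). HSD17B7, the sterol ketoreductase, had 26.2 and 33.1 CPM in the shNC libraries, 21.4 and 21.9 in those of shHMGA2-1 and 5.44 and 7.05 in those of shHMGA2-2. The log2 fold changes were -0.46 ± 0.13 and -2.24 ± 0.15. The spread between its 2 shHMGA2-2 libraries, 0.38 log2 units, was the widest of any member in that line.

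Genes of squalene formation and cyclization were lower as well. FDFT1, the squalene synthase (chromosome 8), had 234 and 238 CPM in the shNC libraries, 209 and 204 in those of shHMGA2-1 and 64.4 and 62.0 in those of shHMGA2-2, with log2 fold changes of -0.19 ± 0.07 (adjusted p = 0.0264) and -1.90 ± 0.07 (5.01e-17). SQLE, the squalene epoxidase (chromosome 8), stood at 55.0 and 56.9 CPM in the shNC libraries, 38.5 and 36.8 in those of shHMGA2-1 and 19.0 and 15.4 in those of shHMGA2-2. Its log2 fold changes were -0.57 ± 0.10 and -1.71 ± 0.11. For LSS, the lanosterol synthase (chr21:46188141-46228824), the values were 118 and 110.0 CPM in the shNC libraries, 64.8 and 56.3 in those of shHMGA2-1 and 46.9 and 44.6 in those of shHMGA2-2. LSS had the largest decrease of any member in shHMGA2-1, -0.91 ± 0.08 (adjusted p = 6.75e-09), and stood at -1.32 ± 0.09 in shHMGA2-2 (2.97e-12).

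Other enzymes between lanosterol and cholesterol were also lower, apart from EBP. CYP51A1, the lanosterol demethylase, had 17.1 and 16.8 CPM in the shNC libraries, 13 and 12.1 in those of shHMGA2-1 and 5.79 and 6.77 in those of shHMGA2-2, a log2 fold change of -1.43 ± 0.15 in the latter line. DHCR7, the last enzyme of the route that ends in cholesterol through dehydrocholesterol, had 103 and 109 CPM in the shNC libraries, 94.6 and 84.3 in those of shHMGA2-1 and 38.1 and 41.9 in those of shHMGA2-2, at -0.25 ± 0.08 and -1.41 ± 0.09. NSDHL, a sterol dehydrogenase, had 41.0 and 45.7 CPM in the shNC libraries, 35.2 and 32.1 in those of shHMGA2-1 and 19.3 and 19.9 in those of shHMGA2-2. Its log2 fold changes were -0.36 ± 0.10 and -1.15 ± 0.10, and the 3 groups did not overlap. SC5D, the sterol desaturase, stood at 90.4 and 87.0 CPM in the shNC libraries, at 54.7 and 61.2 in those of shHMGA2-1 and at 58.6 and 57.4 in those of shHMGA2-2. The lines overlapped and differed by 0.00 ± 0.08 log2 units (adjusted p = 0.988). The weakly expressed reductase TM7SF2 was lower in shHMGA2-2 (5.20 and 5.28 CPM against 8.31 and 9.17, log2 fold change -0.74 ± 0.18). In shHMGA2-1 it did not pass the test (-0.30 ± 0.17, edgeR, adjusted p = 0.192).

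EBP, the sterol isomerase gene on the X chromosome (chrX:48521799-48528716), went against its neighbours in the pathway. It had 19.1 and 16.6 CPM in the shNC libraries, 17.5 and 16.3 in those of shHMGA2-1 and 24.1 and 29.4 in those of shHMGA2-2. The shHMGA2-2 libraries stood above the other 4, and the log2 fold change was 0.59 ± 0.12 against shNC (edgeR, adjusted p = 2.37e-04) and 0.66 ± 0.12 against shHMGA2-1 (7.27e-05).

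The 2 SREBP genes moved apart. SREBF2 (chr22:41833079-41907307), encoding SREBP-2, had 147 CPM in both libraries of shNC, 127 and 118 in those of shHMGA2-1 and 49.2 and 51.6 in those of shHMGA2-2. It stood at 34.3% of shNC in shHMGA2-2 (log2 fold change -1.54 ± 0.08, adjusted p = 1.45e-14) and at -0.26 ± 0.07 in shHMGA2-1 (0.0077). SREBF1 (chr17:17810399-17837002), encoding SREBP-1, had 34.9 and 33.5 CPM in the shNC libraries, 43.2 and 35.0 in those of shHMGA2-1 and 58.3 and 63.1 in those of shHMGA2-2. Its level rose in shHMGA2-2 (0.83 ± 0.10, adjusted p = 1.71e-07), and the change in shHMGA2-1 was 0.19 ± 0.10 (0.164). Per length, SREBF2 was 4.59 and 4.77 times SREBF1 in the shNC libraries, 3.20 and 3.69 times in shHMGA2-1, and 0.919 and 0.891 times in shHMGA2-2. SREBF1 overlaps RAI1 on the opposite strand, and the counting strand is not given in the sources used here, so reads of the shared stretch may have gone to either gene. Without shHMGA2-1 replicate 2 the SREBF1 change in shHMGA2-1 was 0.34 (0.00594).

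The INSIG paralogues also moved apart, in shHMGA2-1 as well as in shHMGA2-2. INSIG1, an endoplasmic reticulum anchor of SCAP (chr7:155297776-155310235), had 149 and 150.5 CPM in shNC, 85.8 and 103 in shHMGA2-1 and 29.4 in both libraries of shHMGA2-2. It fell to 62.9% of shNC in shHMGA2-1 (log2 fold change -0.67 ± 0.08) and to 19.6% in shHMGA2-2 (-2.35 ± 0.09, adjusted p = 9.19e-17). INSIG2, its paralogue (chr2:118088452-118110997), had 35.6 and 33.9 CPM in the shNC libraries, 42.2 and 48.9 in those of shHMGA2-1 and 43.7 and 42.8 in those of shHMGA2-2. It was higher in both lines, by 0.39 ± 0.10 (adjusted p = 0.00292) and 0.32 ± 0.10 (0.00739), with the lines overlapping. Without shHMGA2-2 replicate 1 or shNC replicate 2 the adjusted p of the rise in shHMGA2-2 was 0.0594 or 0.0919, and without shNC replicate 2 that in shHMGA2-1 was 0.0682. The ratio of INSIG1 to INSIG2 in FPKM was 4.53 and 4.81 in the shNC libraries, 2.2 and 2.27 in those of shHMGA2-1 and 0.727 and 0.743 in those of shHMGA2-2.

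SCAP, the escort of the SREBP precursors, gave 72.7 and 74.1 CPM in the shNC libraries, 76.5 and 62.6 in those of shHMGA2-1 and 64.9 and 68.2 in those of shHMGA2-2. The shNC and shHMGA2-1 libraries overlapped, and neither log2 fold change passed the test (-0.08 ± 0.09 and -0.14 ± 0.09, adjusted p = 0.56 and 0.186). Without shHMGA2-1 replicate 1 it was called lower in that line (-0.23, 0.0279). STARD4, a sterol transfer protein (chr5:111496033-111512590), was lower, with 176 and 169.9 CPM in the shNC libraries, 135 and 161 in those of shHMGA2-1 and 45.7 and 47.5 in those of shHMGA2-2. Its log2 fold change was -0.23 ± 0.08 in shHMGA2-1 and -1.89 ± 0.08 in shHMGA2-2.

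**Figure D4:**
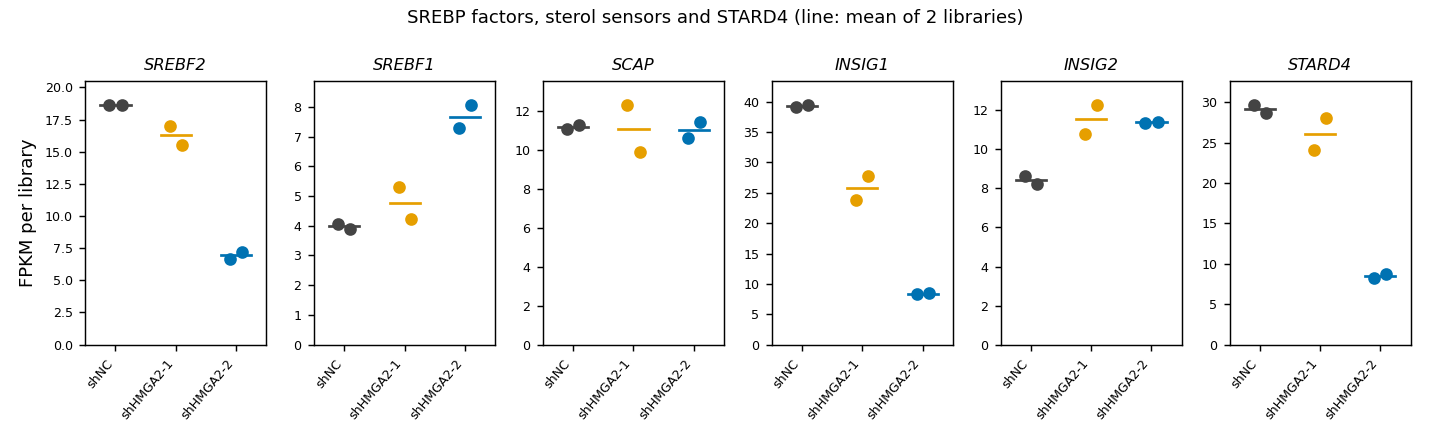
FPKM per library (y axis, from 0) of SREBF2, SREBF1, SCAP, INSIG1, INSIG2 and STARD4 in the 3 lines; points are libraries and lines the means of 2. Mean SREBF2 falls from 18.6 in shNC to 6.94 in shHMGA2-2 while mean SREBF1 rises from 3.98 to 7.67, and INSIG1 falls from 39.2 to 8.37 while INSIG2 goes from 8.41 to 11.4.

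Fatty acid genes among the members fell in both lines. In shHMGA2-1, 7 of 9 were lower (median log2 fold change -0.37), beside 17.6% of all tested genes. In shHMGA2-2, 8 of 9 were lower (median -1.11), 5 of them by at least 2-fold, beside 29.2% and 9.65% of all tested genes. SCD, the stearoyl-CoA desaturase that makes monounsaturated fatty acids (chr10:100347233-100364826), was the member with the highest FPKM in shNC, 128 on average. Its CPM were 699 and 702 in the shNC libraries, 618 and 645 in those of shHMGA2-1 and 128 and 134 in those of shHMGA2-2. The shHMGA2-2 libraries held 18.7% of the shNC level (log2 fold change -2.42 ± 0.06, adjusted p = 7.38e-20), whereas shHMGA2-1 stood at -0.15 ± 0.06 (0.0549), or -0.18 without its replicate 2 (0.011).

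The genes that build the saturated chain followed. FASN, the fatty acid synthase, had 493 and 525 CPM in the shNC libraries, 394 and 346 in those of shHMGA2-1 and 219.8 and 245 in those of shHMGA2-2, at -0.46 ± 0.07 and -1.13 ± 0.07. ACLY, which makes acetyl-CoA from citrate, was lower by a log2 fold change of -0.26 ± 0.06 and -0.61 ± 0.06, and ACACA, which makes malonyl-CoA, by -0.37 ± 0.07 and -0.45 ± 0.07. ACACA did not differ between the lines beyond the threshold (-0.08 ± 0.07, adjusted p = 0.376). ELOVL6, the elongase of saturated chains, had 136 and 134 CPM in the shNC libraries, 81.6 and 87.7 in those of shHMGA2-1 and 53.6 and 50.2 in those of shHMGA2-2. These levels gave log2 fold changes of -0.68 ± 0.08 and -1.38 ± 0.08. ACSS2, which makes acetyl-CoA from acetate, was not different from shNC by the test in either line (0.02 ± 0.11 and -0.14 ± 0.11, adjusted p = 0.928 and 0.252).

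The desaturases of polyunsaturated chains, FADS1 and FADS2, lie on opposite strands of chromosome 11. The span of FADS1 (61799627 to 61829318) lies within that of FADS2 (61792980 to 61867354). The counting strand is not given in the sources used here, so reads of the shared stretch may have gone to either gene. FADS2 had 336 and 338 CPM in shNC, 299 and 276 in shHMGA2-1 and 108 in both libraries of shHMGA2-2, at -0.23 ± 0.06 and -1.65 ± 0.07. FADS1 had 297 and 301 CPM in the shNC libraries, 214 and 213 in those of shHMGA2-1 and 141 and 135 in those of shHMGA2-2, at -0.49 ± 0.06 and -1.11 ± 0.07. LPIN1, the phosphatidate phosphatase lipin, stood at log2 fold changes of -0.46 ± 0.09 and -0.84 ± 0.09.

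Set against each other, the 2 knockdown lines differed for most members. In shHMGA2-2 against shHMGA2-1, 25 of 33 were lower and 2 were higher (EBP and SREBF1), where 25.7% of tested genes were lower and 24.5% higher. The decrease was at least 2-fold for 13, against 7.27% of tested genes, and the median log2 fold change was -0.78 beside 0.00 over all tested genes. MSMO1 (-2.17 ± 0.09) and SCD (-2.27 ± 0.06) differed most. The remaining 6, ACAT2, SC5D, INSIG2, SCAP, ACACA and ACSS2, had differences from -0.16 to 0.00 and adjusted p from 0.211 to 0.988. Without shHMGA2-1 replicate 2, SCAP (-0.20, 0.032) and ACSS2 (-0.30, 0.0178) were called lower too. No member was at least 2-fold higher, 0 by edgeR, DESeq2 and limma and 0 at an unadjusted p under 0.05 (all genes, 7.83%). The call for TM7SF2 (-0.44 ± 0.18, adjusted p = 0.0466) was lost in 12 of 13 alternatives, with adjusted p between 0.0556 and 0.302. The lost calls include those without shHMGA2-1 replicate 1 (0.302), shHMGA2-2 replicate 1 (0.147), shHMGA2-2 replicate 2 (0.131), shNC replicate 1 (0.0556) and shNC replicate 2 (0.0595).

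With both knockdown lines taken as 1 group, where the difference between the lines counts as error, few calls remained. Of the 33, 3 were lower, LSS at -1.10 ± 0.16 (edgeR, adjusted p = 0.0201), SC5D at -0.61 ± 0.09 (0.0182) and ACAT2 at -0.42 ± 0.09 (0.0488), where 2.92% of tested genes were lower. By at least 2-fold there was 1, LSS, against 1.37%. None was higher, by edgeR, DESeq2 or limma, against 2.34% of tested genes, with 1 member at an unadjusted p under 0.05, and the count for at least 2-fold higher was 0 at the unadjusted p too and by DESeq2 and limma (1.72%). DESeq2 called 9 lower, and the mean of the 2 line contrasts in the 3-group model 28. The 3 calls shrank to 0 without shNC replicate 1, without shNC replicate 2 or without shHMGA2-2 replicate 1, and to 1 without shHMGA2-2 replicate 2.

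In the list of other pathway genes 71 of 77 could be tested, and 26 were lower, 6 higher and 39 neither in shHMGA2-1 (all tested genes, 17.6% lower and 15.8% higher). In shHMGA2-2, 32 were lower, 18 higher and 21 neither (all tested genes, 29.2% and 29.5%). The median log2 fold change was -0.15 in each. Among genes of sterol transport, storage and efflux, ABCA1, the cholesterol exporter, was counted 27 and 21 times in shNC, 31 and 28 in those of shHMGA2-1 and 370 and 358 in those of shHMGA2-2. That is a log2 fold change of 3.84 ± 0.20 in shHMGA2-2 (adjusted p = 2.04e-14) and 0.22 ± 0.29 in shHMGA2-1 (0.607). ABCG1, another exporter, had 0 counts in all 4 shNC and shHMGA2-1 libraries and 11 and 27 in shHMGA2-2, at least 5.95-fold higher than shNC if each of its libraries is set to 3 counts. CH25H, which makes an oxysterol, was counted 9 and 5 times in shNC, 6 and 4 in those of shHMGA2-1 and 11 and 21 in those of shHMGA2-2, and did not pass the test against shNC in shHMGA2-1 (log2 fold change -0.55 ± 0.70, adjusted p = 0.594) or shHMGA2-2 (1.1 ± 0.57, 0.104). Between the knockdown lines its fitted difference was 1.65 ± 0.61 (adjusted p = 0.027, edgeR). ABCG1 and CH25H passed the filter on low counts only through the shHMGA2-2 libraries, where their counts are high. Comparisons of these genes with that line are therefore not independent of the filter. TMEM97, a sterol-regulated membrane protein, was lower in both lines (-0.38 ± 0.07 in shHMGA2-1 and -1.11 ± 0.08 in shHMGA2-2).

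Further genes of the list moved in both directions. LBR, a sterol reductase of the nuclear envelope, stood at -0.46 ± 0.08 in shHMGA2-1 and -1.19 ± 0.08 in shHMGA2-2. FADS3, a desaturase relative, stood at -0.52 ± 0.09 and -1.98 ± 0.10, the acyl-CoA synthetase ACSL4 at -0.70 ± 0.09 and -1.64 ± 0.09, and its relative ACSL5 at -1.64 ± 0.10 and -1.33 ± 0.09. MLXIPL, a glucose-responsive transcription factor, was counted 2 and 0 times in the controls, 11 and 3 times in those of shHMGA2-1 and 6 and 10 times in those of shHMGA2-2. Its fitted log2 fold change passed the test in shHMGA2-2 (2.78 ± 1.04, adjusted p = 0.0247, edgeR) and not in shHMGA2-1 (2.59 ± 1.06, 0.0647), on counts this low. MLXIPL passed the filter on low counts only through knockdown libraries, so its test against shNC is not independent of that filter and decides nothing. PDSS1, which starts the ubiquinone side chain, stood at -0.30 ± 0.09 in shHMGA2-1 and -1.47 ± 0.10 in shHMGA2-2. DHDDS, of dolichol synthesis, stood at -0.41 ± 0.10 and 0.63 ± 0.09. Of the 13 listed genes of isoprenoid use after farnesyl pyrophosphate, 6 were lower and 5 higher in shHMGA2-2 (median -0.15), beside 29.2% and 29.5% of all tested genes. In shHMGA2-1, 4 of them were lower and 1 higher (median -0.14), beside 17.6% and 15.8% of all tested genes. The lipin LPIN2 stood at -0.78 ± 0.08 and -1.23 ± 0.08. Genes that process SREBP or turn over its sensors numbered 9, of which 3 were lower and 0 higher in shHMGA2-1 (all tested genes, 17.6% and 15.8%) and 2 lower and 3 higher in shHMGA2-2 (29.2% and 29.5%). The median log2 fold changes were -0.08 and -0.07.

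The promoter table held 42 entries for 29 of the 33 members. ACAT2, FDFT1, SQLE and FASN were the others. CACNCCA was found in 15 of the 42 (35.7%), beside 17.6% of all 35116 promoters of that length and 16.3% of the 16181 of tested genes. The genes with it were ACACA, ACLY, ACSS2, EBP, IDI1, INSIG1, LPIN1, MSMO1, MVD, MVK, SC5D, SCD, SREBF2 and TM7SF2. CCAAT was found in 25 (59.5%, beside 34.6% of all and 34.5% of tested-gene promoters) and GGGCGG in 37 (88.1%, beside 45.0% and 65.2%). Entries of the same gene can overlap, as those of SC5D do, so that a site can be counted more than once. By gene, CACNCCA was found in 14, CCAAT in 21 and GGGCGG in 28 of the 29. The shares over other promoters are by entry. A stretch can count for CACNCCA and CCAAT together, since the one ends in letters that begin the other. The member promoters had a median A plus T share of 32.2%, beside 35.3% in the tested genes' promoters.

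In the printed promoters, that of MSMO1 held CACNCCA once and CCAAT 4 times, that of SCD CACNCCA once and CCAAT 2 times, and that of SREBF2 both motifs once. The SREBF1 window held GGGCGG 3 times and neither of the other 2 motifs. EBP, higher in shHMGA2-2, held CACNCCA once and CCAAT 3 times, and SCAP and INSIG2 held only GGGCGG. Such matches describe letters and not bound sites.

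Some counts are uncertain because the members overlap other genes. MVK overlaps MMAB on the opposite strand, CYP51A1 overlaps AKAP9, ACAT2 overlaps TCP1 and SOD2, ACSS2 overlaps GGT7, TM7SF2 overlaps VPS51 on the same strand and FADS2 overlaps FEN1 on the same strand. AKAP9 reached 2005 counts in its highest library, where CYP51A1 averaged 199.5 over all 6. The part of these overlaps in the values was not tested.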

How the data were processed

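Bulk RNA of 6 MDA-MB-231 libraries was analysed, grouped and numbered as their titles say. The table the authors deposited gives each gene's read counts, not normalized, and its FPKM in each library. The FPKM values, which the authors scaled by exonic size and library total, could be recomputed from the counts for 100% of values. The submitters' processing notes name HISAT2 2.2.1, HTSeq 0.6.1 and GRCh38.p13, and the strand setting is not given in the sources used here. Gene positions are those of the deposited table, and sample columns that were not used numbered 0.

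Counts were tested with edgeR 4.0.16 (R 4.3.3): TMM scaling, filterByExpr, the quasi-likelihood test in a 3-group model over all 6 libraries, and Benjamini-Hochberg adjustment over 16110 genes. Standard errors are the log2 fold change divided by the square root of F. A 2-group model compared both knockdown lines with shNC. Calls needed an adjusted p under 0.05. The fitting functions were tested on simulated data. The alternatives were DESeq2 1.42.0, limma 3.58.1 on log2(FPKM + 1) or log2(FPKM + 0.1), upper quartile scaling, other filters, the replicate number as a block, and leaving out each library. Promoters came from a RefSeq table (GRCh38.p14).

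The members, the other lists and the tests were chosen with earlier results of these data known. Members past the adjusted p and 2-fold in any of the 3 contrasts of the 3-group model, and SREBF1, SREBF2, SCAP, INSIG1 and INSIG2, are given in every library. Of the other lists at most 4 genes past both thresholds are named per list, by the largest log2 fold change. Libraries of the same number deviated from their group means with correlations of -0.0242, 0.00364 and -0.178, so the numbers were not taken as pairs. Floors of 3 counts cover counting error only, since reads carry no molecular identifiers.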

Additional observations from a re-analysis of the deposited data

Results flagged for a closer look

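The changes from shNC differed between the 2 knockdown lines for 27 of the 33 members, by the direct test of shHMGA2-2 against shHMGA2-1 (edgeR, adjusted p under 0.05, 2 libraries a line). Of all tested genes, 25.7% were lower and 24.5% higher in that comparison. For the mevalonate and isoprenoid enzymes the log2 difference between the lines was -1.09 for HMGCS1, -0.86 for MVK, -0.50 for PMVK, -0.94 for MVD, -1.21 for IDI1 and -1.54 for FDPS. The squalene and later sterol enzymes differed by -1.71 for FDFT1, -1.13 for SQLE, -0.41 for LSS, -0.99 for CYP51A1, -0.44 for TM7SF2, -2.17 for MSMO1, -0.78 for NSDHL, -1.79 for HSD17B7, 0.66 for EBP and -1.16 for DHCR7. Regulators differed by -1.68 for INSIG1, 0.63 for SREBF1, -1.29 for SREBF2 and -1.67 for STARD4. Fatty acid genes differed by -0.35 for ACLY, -0.67 for FASN, -2.27 for SCD, -0.71 for ELOVL6, -0.63 for FADS1, -1.42 for FADS2 and -0.38 for LPIN1. HMGA2 itself differed by -1.01 ± 0.10 between the lines. By the titles the lines carry different shRNAs, but which of the 2 shRNAs shHMGA2-1 holds is not certain. Effects of the shRNA, of the clone and of the degree of knockdown cannot be told apart.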

How the results depend on the processing

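The 28 lower calls in shHMGA2-2 held under all 13 alternatives, and the counts in that line and between the lines stayed within 1.5 times. Over the members 1626 of 1749 calls were the same, 82 were lost, 41 were gained and 0 turned direction. In shHMGA2-1 the count lower was 14 with limma on either pseudocount, and 13 to 22 on leaving out a library (13 without shNC replicate 2, 15 without shNC replicate 1). Calls for HMGCS1, MVD, FDFT1, CYP51A1, HSD17B7, DHCR7, SREBF2, STARD4 and FADS2 were lost in at least 3 alternatives (STARD4 in 8, also without either shHMGA2-2 library or shHMGA2-1 replicate 1) and those for NSDHL, ACLY and INSIG2 in 1. SCD was called lower in 3 (adjusted p 0.011 to 0.0417), and without shHMGA2-1 replicate 2 SREBF1 was called higher (0.34, 0.00594). On leaving out a library the count higher was 0 to 2 and that of at least 2-fold lower 0 to 1 in shHMGA2-1. With the lines as 1 group, the count lower was 9 by DESeq2, 0 with the replicate block, 28 as the mean of the line contrasts and 0 to 2 on leaving out a library. By at least 2-fold these were 2, 0, 10 and 0 to 1, and 0 by limma on log2(FPKM + 1), and the mean of the line contrasts called 2 higher. HMGA2 then stood at -1.72 with the replicate block (adjusted p = 0.114) and -1.94 to -1.55 on leaving out a library (0.0357 to 0.279), from -1.71 (0.0421). The block changed 5 member calls. The cause of these changes was not tested. Upper quartile scaling moved the median of all genes to 0.14 in shHMGA2-2 and 0.13 for the lines together, and limma on log2(FPKM + 0.1) to 0.14 in shHMGA2-2. Without a filter it was 0.16 for the lines together. With 2 libraries a group the model has 3 residual degrees of freedom.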

Other observations

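The deposited table carries KEGG terms, and 5 of its pathways were looked at after the members' values were seen, each without the members. Under steroid biosynthesis it lists 10 tested genes that are not members. Of these, 6 were lower and 1 higher in shHMGA2-2 (median log2 fold change -0.80), beside 29.2% of all tested genes lower and 29.5% higher. By at least 2-fold 4 were lower there, beside 9.65% of all tested genes. In shHMGA2-1, 3 were lower and 1 higher (median -0.30), beside 17.6% of all tested genes lower and 15.8% higher. The other 4 pathways had medians near 0 in shHMGA2-2. Genes lower by at least 2-fold there numbered 2 in terpenoid backbone biosynthesis and 4 in fatty acid biosynthesis. They numbered 0 in unsaturated fatty acid biosynthesis and 0 in fatty acid elongation. Of 17 genes of terpenoid backbone biosynthesis 8 were lower and 8 higher there (median -0.03), and 5 lower and 2 higher in shHMGA2-1 (-0.12). Of 13 of fatty acid biosynthesis 4 were lower and 3 higher in shHMGA2-2 (0.13), and 5 lower and 2 higher in shHMGA2-1 (-0.09). Of 17 of unsaturated fatty acid biosynthesis 4 were lower and 5 higher in shHMGA2-2 (0.03), and 3 lower and 5 higher in shHMGA2-1 (0.12). Of 22 of fatty acid elongation 4 were lower and 7 higher in shHMGA2-2 (0.08), and 2 lower and 6 higher in shHMGA2-1 (0.12).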
